A study of Drosophila melanogaster with 4 samples.

Results

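Polycomb regions on 3L, the left arm of chromosome 3 of Drosophila melanogaster, were described in 2 ChIP-seq libraries (replicates 1 and 2) of wild-type Oregon-R-modENCODE embryos aged 14 to 16 h. Both libraries were made from the same stage and genotype with an antibody against Polycomb (Pc), and each came with its own list of enriched regions and a score per region. The members were all listed regions on 3L except those overlapping the stretch from 12.54 to 12.74 Mb, the site of the Iroquois homeobox complex, which was left out. This left 202 of the 1189 regions of replicate 1 and 261 of the 1405 regions of replicate 2, after 6 and 4 regions had been left out. All positions are on FlyBase r5, as the authors' files give them. The 2 input libraries of genomic DNA carried no values here, and read depth per region was unknown. The lists hold no expression values, so the stage could not be checked against marker genes. The libraries came from whole embryos, in which Polycomb bound in fewer cells and less Polycomb per cell cannot be told apart. Whether each replicate had its own embryo collection is not in the labels, and differences between them may be technical.

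Polycomb works as part of Polycomb repressive complex 1. Through its chromodomain it binds histone H3 trimethylated at lysine 27, the mark that Polycomb repressive complex 2 deposits. In flies, both complexes are brought to Polycomb response elements, short DNA elements near target genes, and from there the mark can spread into broad domains that cover a gene or a gene cluster. A Polycomb map therefore typically holds broad domains together with narrow sites. Genes of 3L that are known for Polycomb silencing outside the cells that use them include the T-box genes Doc1, Doc2 and Doc3, the POU-domain gene vvl, the neighbouring Pax-type genes toe and eyg, the neighbouring Sox genes Sox21b and D, and the nuclear receptor genes knrl and kni. No annotation or genome of that release entered the work, so regions carry positions as names, were not tied to these or other genes, and were not read as sequence.

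Polycomb on 3L was divided between a few broad regions that held most of the covered sequence and many narrow ones that held little of it. The regions covered 1.15 Mb in replicate 1 and 1.22 Mb in replicate 2, which is 4.71% and 5.03% of the arm outside the left-out stretch. Widths ran from 1301 bases to 48.2 kb in replicate 1, with a median of 2039.5 bases. In replicate 2 they ran from 1304 bases to 47.9 kb, with a median of 1830 bases. Both ends of the widths were thus similar in the libraries, and replicate 2 had more of the narrow regions. Whether the calling of regions set a lowest width is unknown, so the similar lower end was not read as a property of Polycomb. Both libraries listed 31 regions of 10 kb or more. These broad regions were 15.3% and 11.9% of the lists, yet contained 60.5% and 54.2% of the bases covered on the arm. Regions under 2 kb numbered 99 in replicate 1 and 141 in replicate 2. They accounted for 49.0% and 54.02% of the entries, yet for 13.1% and 17.8% of the covered sequence. The remaining 72 and 89 regions, from 2 kb to under 10 kb, held 26.4% and 28.0%.

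**Figure D1:**
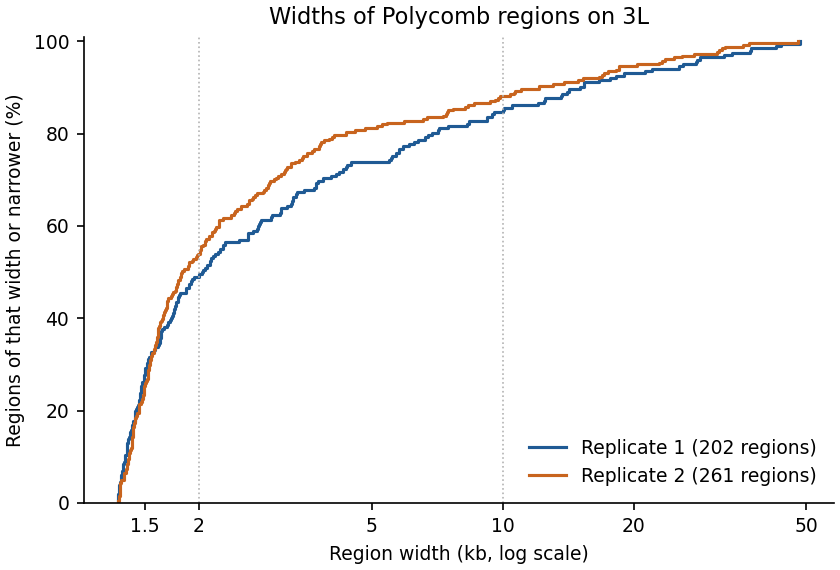
Cumulative share of the Polycomb regions on 3L (y axis, percent of the list) by region width (x axis, kb, log scale) in replicate 1 (202 regions) and replicate 2 (261 regions), with dotted lines at 2 and 10 kb. Under 2 kb lie 49.0% of the regions of replicate 1 and 54.02% of those of replicate 2, and both curves end near 48 kb.

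Scores were higher in wider classes of regions, while among regions under 2 kb width and score were hardly related. The score is the authors' own, on a scale they do not state. Scores on 3L ran from 0.341 to 1.88 in replicate 1 (median 0.521) and from 0.248 to 2.03 in replicate 2 (median 0.559). Regions under 2 kb had a median score of 0.469 in replicate 1, and none exceeded 0.601. In replicate 2 their median was 0.520 and their highest score was 0.828. From 2 kb to under 10 kb, medians were 0.594 and 0.601, and the highest scores, 1.11 and 1.24, lay within the range of the broad regions. Regions of 10 kb or more had medians of 1.18 and 1.20, and the lowest score among them was 0.783 in replicate 1 and 0.630 in replicate 2. In replicate 1 the score ranges of the narrowest and the broadest class did not overlap, while in replicate 2 they did. Across all regions, Spearman's rho between width and score was 0.77 in replicate 1 (n = 202 regions) and 0.64 in replicate 2 (n = 261 regions). Among the regions under 2 kb it was -0.05 (n = 99 regions) and 0.01 (n = 141 regions). Among the 31 broad regions of each library it was 0.43 and 0.28. These correlations describe regions of 1 arm that share a library, and how far width enters the score by construction is unknown.

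Joining regions under 5 kb apart gave 121 Polycomb blocks in replicate 1 and 146 in replicate 2. Of these, 83 and 93 consisted of 1 region, while 38 and 53 joined 2 or more. Blocks of 10 kb or more numbered 32 and 42, and they held 79.4% and 80.4% of the covered bases of 3L. Within the spans of these wide blocks, regions filled 90.8% of the sequence in replicate 1 and 85.5% in replicate 2. The 12 widest blocks alone held 50.3% of the covered bases in replicate 1 and 42.9% in replicate 2. Of the 12 widest blocks of replicate 1, 10 overlapped one of the 12 widest of replicate 2.

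Some of the widest Polycomb blocks were solid in both libraries. The block from 8992206 to 9040434 was a single region of 48.2 kb with a score of 1.88 in replicate 1. In replicate 2 it was a single region from 8992616 to 9040488, 47.9 kb wide, with a score of 2.03. Outside the left-out stretch it was the widest and the highest-scoring 3L region of both lists, and its edges differed by 410 and 54 bases. A second such block ran from 21440627 to 21477723 in replicate 1 (37.1 kb, score 1.40) and from 21440454 to 21477249 in replicate 2 (36.8 kb, score 1.24). Its edges differed by 173 and 474 bases. These were the 2 blocks among the 12 widest of replicate 1 that consisted of 1 region in both libraries.

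Other wide blocks were divided by short gaps, with different numbers of regions in the libraries in most cases. The block from 14097523 to 14182624 measured 85.1 kb in replicate 1, where 3 regions filled 97.7% of it. In replicate 2 it measured 88.0 kb, ran from 14094612 to 14182631, and was filled to 96.0% by 6 regions. Its right edge differed by 7 bases, and its left edge by 2911 bases, with a region of 1.30 kb at the left end of the replicate 2 block that had no counterpart in replicate 1. The block from 3840481 to 3894722 measured 54.2 kb in replicate 1 (2 regions, highest score 1.19) and 54.4 kb in replicate 2 (4 regions, highest score 1.35). Its edges differed by 360 and 176 bases. The block from 19645790 to 19680321 consisted of 2 regions in each library and measured 34.5 and 33.8 kb, with highest scores of 1.36 and 1.51. The block from 367046 to 403722, near the outer end of the arm, consisted of 4 regions over 36.7 kb in replicate 1 and of 2 regions over 37.0 kb in replicate 2. Its highest score was 1.37 in replicate 1 and 1.12 in replicate 2. The block from 12280133 to 12328861 (48.7 kb, 4 regions, highest score 0.979) had a replicate 2 partner of 49.4 kb (6 regions, 1.07), shifted to the left by 4236 bases at one edge and 3521 bases at the other. The block from 14556189 to 14598635 was 1 region of 42.4 kb in replicate 1 (score 1.33), of which replicate 2 covered 82.9% with 2 regions (highest score 1.26).

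Another kind of wide block held regions of unequal score with gaps that neither library filled. Outside the left-out stretch, the widest block of replicate 1 ran from 10229789 to 10328302 (98.5 kb) and joined 11 regions, which filled 83.5% of it. Its highest score was 1.04, lower than in most of the narrower blocks named above. Replicate 2 met it with 2 blocks, from 10218532 to 10243553 (25.02 kb, 5 regions) and from 10250198 to 10325976 (75.8 kb, 9 regions, highest score 1.00). Replicate 2 covered 79.7% of the bases that regions held in the replicate 1 block. The block from 12410769 to 12464615 (53.8 kb) joined 8 regions with scores from 0.426 to 1.47 in replicate 1. The replicate 2 block, from 12412557 to 12464593, joined 6 regions with scores from 0.431 to 1.26. In both libraries the highest score lay at its right end, in a region of 12.05 kb in replicate 1 and 10.7 kb in replicate 2, and the next highest lay in a region of 22.1 and 18.3 kb nearer its left end. The block from 6887399 to 6934920 (47.5 kb) began with a region of 16.6 kb that scored 1.44 and went on with 7 regions that scored at most 0.626. In replicate 2 the first region measured 17.1 kb and scored 1.39, and replicate 2 covered 65.8% of the region bases of the block. The block from 10976562 to 11010647 (34.1 kb, 5 regions) was filled to 78.8% in replicate 1. Its replicate 2 partner (37.9 kb, 6 regions) was filled to 65.1%. Its highest scores were 1.21 and 1.14.

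**Figure D2:**
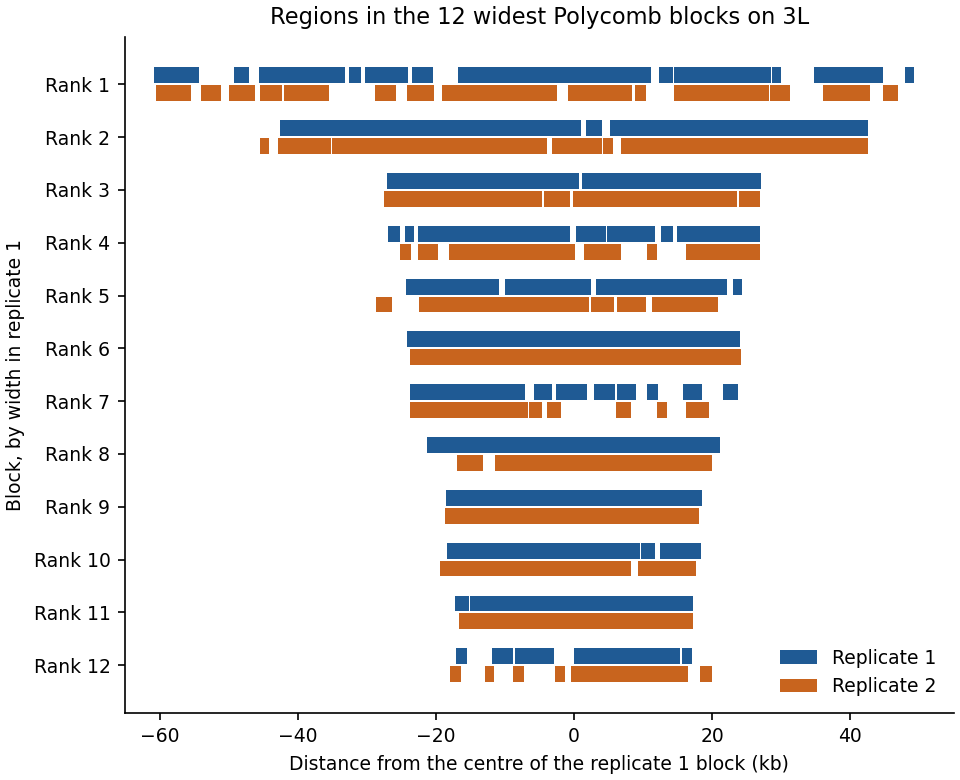
Polycomb regions in and around the 12 widest blocks of replicate 1 on 3L, ranked by width (y axis) and drawn as bars by distance from the centre of the replicate 1 block (x axis, kb), with replicate 1 above and replicate 2 below in each row. Ranks 6 and 9 are 1 region in both libraries, while ranks 1, 4, 7 and 12 are divided into 5 to 11 regions in replicate 1.

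Where blocks paired one to one, their outer edges typically lay about 1 kb apart. There were 58 such pairs, with 116 edges, and the median difference between the libraries was 1001 bases (upper quartile 2610.5 bases, largest 11.0 kb). The edges lay within 500 bases of each other in 40 cases and 2 kb or more apart in 35. In the 27 pairs of 10 kb or more the median difference was also 1001 bases, and replicate 2 blocks were 1.01 times as wide as their partners in the median. In the 31 narrower pairs the median edge difference was 1034 bases and the median width ratio was 1.36. Pairs were sorted by width in replicate 1 alone. That choice may itself raise the ratio in narrower pairs and lower it in wider ones, which was not tested. Spearman's rho between the widths was 0.94 over the 27 wide pairs and 0.57 over the 31 narrower ones. A block in replicate 1 met 2 or more blocks of replicate 2 in 4 cases, and the reverse held in 4 cases.

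Gaps inside blocks were often not shared. In replicate 1, 81 gaps between neighbouring regions were under 5 kb long. Regions of replicate 2 wholly covered 26 of these gaps and left 24 wholly uncovered. Replicate 2 had 114 such gaps of at least 1 base, of which replicate 1 covered 33 wholly and left 46 uncovered. Of the gaps under 1 kb, the other library covered 23 of 43 in replicate 1 and 23 of 40 in replicate 2 from end to end. Of the gaps from 1 kb to under 5 kb, it covered 3 of 38 and 10 of 74. Most divisions of a block at a gap under 1 kb were thus missing in the other library.

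Outside the left-out stretch, the highest scores on 3L belonged to broad regions and were found in both libraries. All 10 of the highest-scoring regions of each list measured 10 kb or more and overlapped a region of the other list. The order differed below the first place, and 5 of the 10 of replicate 1 overlapped one of the 10 of replicate 2. After the 48.2 kb region named above came the region from 12452569 to 12464615 in replicate 1 (12.05 kb), which scored 1.47 and 1.26 and ranked 2 and 10. The region from 6887399 to 6904041 scored 1.44 and 1.39 and ranked 3 in both libraries. The region from 3619449 to 3637123 (17.7 kb) scored 1.43 in replicate 1 and 1.21 in replicate 2, where it was 23.3 kb wide and ranked 16. The region from 367046 to 388269 (21.2 kb) scored 1.37 and 1.12 and ranked 6 and 20. The region from 7929932 to 7963626 (33.7 kb) scored 1.36 and 1.33 and ranked 7 and 6. The region from 19647950 to 19680321 (32.4 kb) scored 1.36 and 1.51 and ranked 8 and 2. The last of the 10, from 6973887 to 6987591 (13.7 kb), scored 1.29 and 1.20 and ranked 10 and 17. Ranks come from lists of different lengths, so a difference in rank was not read as a change in Polycomb. In the other direction, the region of replicate 2 from 20781617 to 20792206 (10.6 kb) scored 1.36 and ranked 4, and its replicate 1 partner scored 1.12 and ranked 18.

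Where a region of one library overlapped a single region of the other and the reverse also held, the scores went together. Across these 62 pairs, which share an arm and are not independent, Pearson's r was 0.92 and Spearman's rho 0.77. The largest difference within a pair was 0.295. By width in replicate 1, rho was 0.85 for the 9 broad pairs, 0.62 for the 33 from 2 kb to under 10 kb and 0.54 for the 20 narrow ones under 2 kb. In the narrow pairs replicate 2 had the higher score in 18 of 20, with a median difference of 0.0885. In the broad pairs it had the higher score in 3 of 9, with a median difference of -0.0444. The classes were set by width in replicate 1 alone. That choice may itself favour higher replicate 2 scores in narrow pairs and lower ones in broad pairs, which was not tested. A common scale of both lists is not stated, so an offset between them was not read as a difference in Polycomb. The one-to-one rule kept 62 of the 124 replicate 1 regions found in replicate 2, and 9 of the 31 broad ones. Spearman's rho was 0.60 over all 158 overlapping pairs and 0.91 over the 75 with at least 50% of both regions overlapping.

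**Figure D3:**
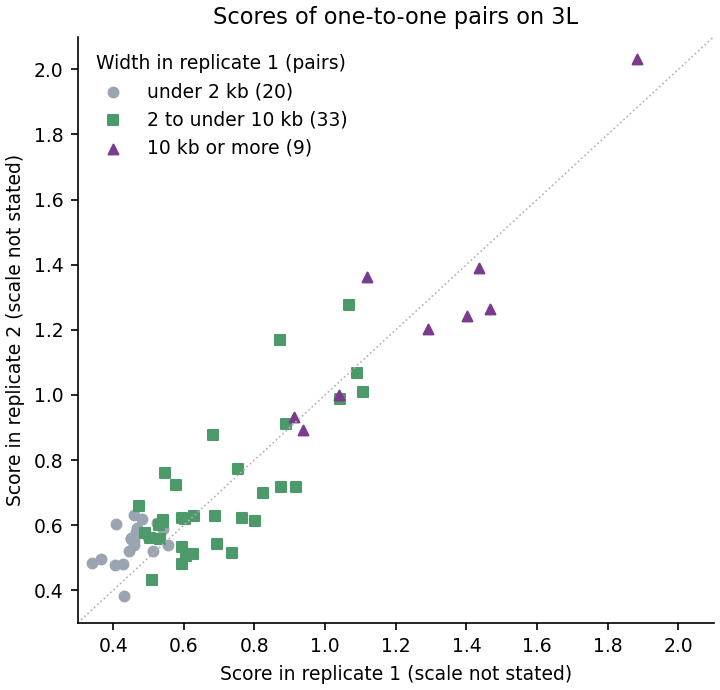
Score in replicate 2 (y axis) against score in replicate 1 (x axis), both on the authors' scale, which is not stated, for the 62 one-to-one pairs of Polycomb regions on 3L, by width in replicate 1. The dotted line marks equal scores, and 18 of the 20 pairs under 2 kb lie above it.

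Broad Polycomb regions on 3L were found in both libraries, and narrow ones mostly were not. At 10 kb or more, each of the 31 regions of replicate 1 overlapped replicate 2 Polycomb by at least 1 base (exact binomial 95% interval 88.8 to 100%). The same held for the 31 broad regions of replicate 2. Over the whole genome the share was 100% in both directions. Of the bases in these broad regions, 95.2% in replicate 1 and 95.3% in replicate 2 were covered by the other library. From 2 kb to under 10 kb, 61 of 72 regions of replicate 1 were found (84.7%, interval 74.3 to 92.1%, genome 84.6%). In replicate 2, 67 of 89 were found (75.3%, interval 65.0 to 83.8%, genome 85.1%). Under 2 kb, 32 of 99 regions of replicate 1 were found (32.3%, interval 23.3 to 42.5%, genome 34.4%), and 34 of 141 in replicate 2 (24.1%, interval 17.3 to 32.0%, genome 31.7%). The intervals reflect counting error alone, although neighbours on the arm depend on each other. The shares of replicate 1 lay near those of the whole genome in each class, and those of replicate 2 under 10 kb lay below it, for 2 kb to under 10 kb with the genome's value outside the interval. A wide region meets the 1-base rule more easily than a narrow one. With at least 50% of both regions overlapping, 93.5% of the broad regions were found in each direction. From 2 kb to under 10 kb this share was 48.6% in replicate 1 and 41.6% in replicate 2, and under 2 kb it was 11.1% and 6.38%. Genome shares by class were not computed for this rule.

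**Figure D4:**
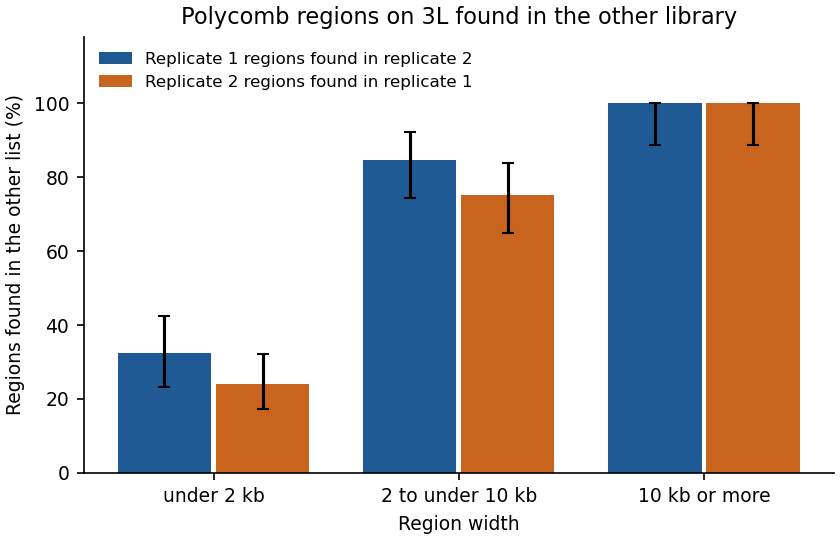
Share of Polycomb regions on 3L that overlapped a region of the other library by at least 1 base (y axis, percent) in 3 width classes (x axis), with exact binomial 95% intervals as error bars. The bars rise from 32.3% and 24.1% under 2 kb to 100% at 10 kb or more.

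Over all widths, 124 of 202 regions of replicate 1 were found in replicate 2 (61.4%, interval 54.3 to 68.1%), against 64.7% over the whole genome. In the other direction 132 of 261 were found (50.6%, interval 44.3 to 56.8%), against 60.7% over the whole genome. Requiring an overlap of at least 50% of both regions lowered the shares to 37.1% and 28.7%, against 43.5% and 36.8% over the whole genome. The libraries had 0.904 Mb of 3L in common, or 78.8% of what replicate 1 covered and 73.9% of what replicate 2 covered. The Jaccard index, the bases in both lists over the bases in either, was 61.6%. The same index was 69.1% on 2L, 70.5% on X, 70.7% on 2R, 77.3% on 3R and 81.7% on chromosome 4. Putting the left-out stretch back raised it to 65.1% on 3L, which still lay below the other arms. The share of replicate 2 regions found ran from 53.3% on 2R to 77.8% on chromosome 4 outside 3L, where it was lower. In replicate 1 the share on 2R, with 105 of 175 regions found, was below that on 3L, and the other arms ran from 65.3% on 3R to 94.4% on chromosome 4. The arms differ in the number and width of their broad regions, regions lie in groups, and no test was made of the difference between arms. 3L had the lowest covered share of the 6, with the next lowest on 2R at 5.76% and 5.92%. With the left-out stretch put back, regions covered 5.39% and 5.68% of 3L, still below 2R.

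The Polycomb regions of 3L that were found in one list only were narrow and low in score. Those of replicate 1 numbered 78, measured 1487 bases and scored 0.478 in the median, and made up 11.6% of the covered sequence. For the 129 of replicate 2 these values were 1549 bases, 0.538 and 18.1%. The shared regions had median widths of 3714.5 and 3361.5 bases and median scores of 0.604 and 0.620. Among regions under 2 kb the median scores were close, with 0.474 for single-list and 0.459 for shared regions in replicate 1, and 0.523 and 0.513 in replicate 2. A minority of the single-list regions lay under 5 kb from Polycomb of the other library. The matching share over the whole genome was not computed. Of the 78 in replicate 1, 31 lay under 5 kb from a replicate 2 region, 24 lay from 5 kb to under 50 kb away and 23 lay farther. Of the 129 in replicate 2, the counts were 42, 50 and 37. In their own lists, 29 of the 78 and 60 of the 129 belonged to a block of 2 or more regions.

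The highest-scoring single-list region was in replicate 2, from 8458762 to 8461334 (2.57 kb), with a score of 1.02 and no replicate 1 region within 67.4 kb. That score lay above the lowest score of the broad regions in either library. It was followed in replicate 2 by 22705235 to 22706690 (score 0.828, 10.1 kb from replicate 1), 2678359 to 2680143 (0.763, 255.7 kb), 21654292 to 21655941 (0.751, 12.8 kb) and 1718201 to 1720370 (0.736, 194.7 kb). In replicate 1 the highest was 10400779 to 10404068 (3.29 kb, score 0.715), 39.5 kb from the nearest replicate 2 region. The next 4 scored from 0.588 to 0.601, at 20099107 to 20100469, 637533 to 641209, 12327528 to 12328861 and 22157690 to 22159121. The widest single-list region of replicate 1, from 21791578 to 21797670 (6.09 kb, score 0.509), lay 0.799 kb from replicate 2 Polycomb. The region from 637533 to 641209 (3.68 kb) and the one that scored 0.715 were next in width. The widest of replicate 2, from 18381757 to 18386317 (4.56 kb), 738952 to 743030 (4.08 kb) and 10225040 to 10228009 (2.97 kb), lay 1.32, 0.415 and 0.356 kb from replicate 1 Polycomb. In replicate 2 the 3 widest single-list regions thus lay next to Polycomb of the other library, while each of the 5 highest-scoring ones lay at least 10.1 kb from it. Replicate 1 did not show this split, since 2 of its 3 widest lay 10.9 and 39.5 kb away and 1 of its 5 highest-scoring, from 12327528, lay 2.19 kb away.

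Polycomb regions on 3L lay in groups with long empty stretches between them. From a region to the nearest other one, the median distance measured 2.47 kb in replicate 1 and 2.27 kb in replicate 2. With regions under 1 kb apart merged, it measured 10.3 and 4.66 kb. A neighbour under 5 kb away was present for 119 of 202 regions in replicate 1 (58.9%) and 168 of 261 in replicate 2 (64.4%). At the other extreme, 44 and 40 regions lay 50 kb or more from any other member. Left-out regions did not count as neighbours in these distances. The nearest of them lay 0.236 kb from a member in replicate 1 and 17.5 kb in replicate 2. Between neighbouring regions, the left-out stretch aside, 51 of 200 gaps in replicate 1 and 54 of 259 in replicate 2 were 100 kb or longer.

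The largest group of Polycomb regions was the same in both libraries. With regions under 50 kb apart joined, it ran from 6761242 to 6987591 in replicate 1 (226.4 kb, 24 regions in 9 blocks) and from 6762812 to 6987916 in replicate 2 (225.1 kb, 25 regions in 10 blocks). It held 3 regions of 10 kb or more in each library, with scores of 1.27, 1.44 and 1.29 in replicate 1 and 1.31, 1.39 and 1.20 in replicate 2. They stood at 6776056 to 6791434, 6887399 to 6904041 and 6973887 to 6987591 in replicate 1. The other regions were each under 10 kb, and 7 of them in replicate 1 and 12 in replicate 2 were under 2 kb. The group was covered to 44.7% and 43.9% and had median scores of 0.538 and 0.580. Counterparts in the other list existed for 20 of its 24 regions in replicate 1 and for 22 of its 25 in replicate 2. Over the whole genome, 64.7% of replicate 1 regions and 60.7% of replicate 2 regions had a counterpart. A counterpart needed to share 1 base only, which is met more easily where both lists cover much of a span. Replicate 2 covered 3.06% of the region from 6802093 to 6803496 and 99.7% of the one from 6887399. The shares of the group were therefore not read as better agreement than over the genome.

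A second large group appeared mainly in replicate 2. It ran from 11222000 to 11428213 (206.2 kb) and held 19 regions, none of 10 kb or more, with scores from 0.446 to 0.671. Replicate 1 listed 5 regions in that span, covering 8.40 kb against 35.6 kb in replicate 2, and 2 of the 19 regions were found in replicate 1. Over the whole genome, 60.7% of replicate 2 regions were found in replicate 1. For those under 2 kb, a class that held 12 of the 19, the genome share was 31.7%. This group was the second widest of replicate 2. In replicate 1 the second widest ran from 10218291 to 10404068 (185.8 kb, 17 regions, 5 of them of 10 kb or more), around the 98.5 kb block.

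Coverage along the arm was uneven in the same way in both libraries. Over the 25 windows of 1 Mb, covered length went together between the libraries (Spearman's rho 0.95, Pearson's r 0.98, across windows of 1 arm). The 5 windows with the highest coverage in replicate 1 held 53.0% of its covered bases and 48.9% of those of replicate 2. The window from 14 to 15 Mb was covered over 134.7 kb in replicate 1 and 129.1 kb in replicate 2 by only 7 and 11 regions. The window from 10 to 11 Mb had 134.1 and 123.1 kb in 25 and 32 regions, and that from 6 to 7 Mb had 131.1 and 133.9 kb in 26 and 31 regions. The first 1 Mb of the arm had 111.1 and 125.7 kb, with 26 regions in each library. The window from 14 to 15 Mb thus reached a covered length similar to those from 10 to 11 Mb and from 6 to 7 Mb with fewer regions. The lowest values within the part of the arm that held regions were 1.52 and 6.28 kb from 2 to 3 Mb, 2.77 and 1.61 kb from 16 to 17 Mb, and 3.29 and 8.02 kb from 17 to 18 Mb. The window from 11 to 12 Mb, which holds the group found mainly in replicate 2, had 27.1 kb in 10 regions and 50.4 kb in 23.

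**Figure D5:**
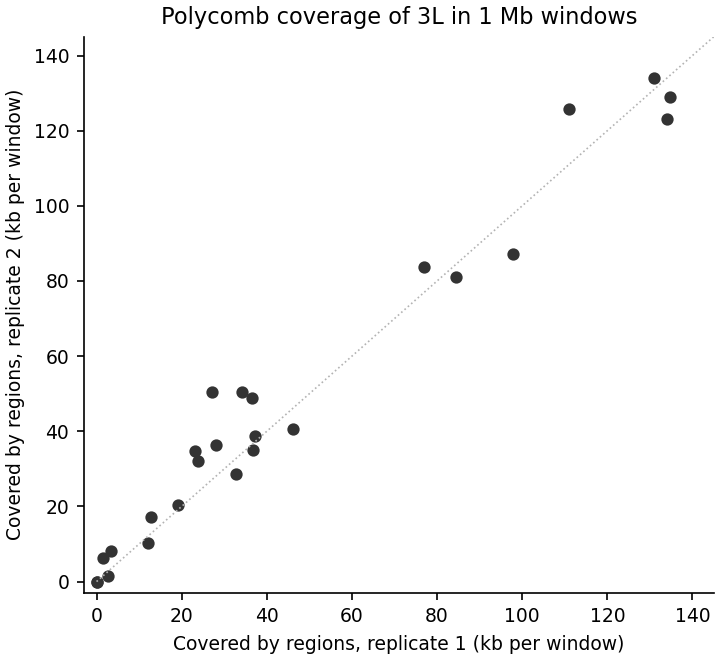
Length covered by Polycomb regions in each of 25 windows of 1 Mb on 3L, in replicate 2 (y axis, kb) against replicate 1 (x axis, kb), with a dotted line of equal coverage. The last window is shorter than 1 Mb, and 1 window lacks the left-out stretch. The 4 points at the upper right lie above 110 kb in both libraries, and both empty windows lie at 0.

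The longest stretch without Polycomb regions reached from the last region to the inner end of the assembled arm, the side of the centromere. In replicate 1 the last region ended at 22829576, which left 1714 kb without a region, and in replicate 2 it ended at 22724264, which left 1819 kb. The last replicate 1 region, from 22826832 to 22829576 (score 0.519), had no replicate 2 counterpart. Elsewhere, 4 of the longest stretches with no region in either list ran from 2680144 to 3617022 (936.9 kb), from 16024624 to 16673536 (648.9 kb), from 13475328 to 14079222 (603.9 kb) and from 7417768 to 7929931 (512.2 kb). The first ended at the block that held the high-scoring region from 3619449, and the last ended at the 33.7 kb region from 7929932. In all, 62 stretches of 100 kb or more with no region in either list made up 74.9% of the arm. A few narrow regions found in one list set how long some stretches were. Replicate 2 listed nothing from 9040489 to 10218531 (1178 kb), where replicate 1 listed 4 regions. Replicate 1 listed nothing from 2422675 to 3617701 (1195 kb), where replicate 2 listed 3. Depth was unknown, so a stretch without regions may hold Polycomb under the authors' threshold.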

How the data were processed

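The authors deposited 1 list of regions of significant enrichment per ChIP library, with a score per region on a scale that is not stated. FlyBase r5 is the build per the file headers, and the submitters' processing notes name Bowtie 0.12.7. Which program called the regions, and at what threshold, was not given in the sources used here. Fixation was with 1.8% formaldehyde, per the labels' protocols. The source names of the ChIP samples carry experiment numbers that match the file of the other replicate. The recorded link was used, and exchanged lists would only swap the replicate names.

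Comparisons ran in Python 3.11.15 with scipy 1.17.1 and numpy 2.4.6, and figures in matplotlib 3.10.9. A region was found when at least 1 base overlapped the other list. Intervals are exact (Clopper-Pearson) at 95%. Correlations are descriptions without p-values, and with 2 libraries of 1 condition no test between groups was possible. No start or end was identical between the lists on 3L (0 and 0). Interval functions were tested on simulated data, with 0 wrong values in 50 pairs of lists.

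The members, width classes and joining distance were chosen with earlier results of these data known, and the 1 Mb windows, the edge and gap comparisons and the account of the 50 kb groups after the values were seen. Named regions were the 12 widest replicate 1 blocks, its 10 highest-scoring shared regions, the 5 highest-scoring and 3 widest single-list regions per library, and the 5 longest stretches empty in both lists. Other regions were picked out after their values were seen. Gene names and neighbours came from a RefSeq table of Release 6, whose coordinates were not used.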

Additional observations from a re-analysis of the deposited data

How the results depend on the processing

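Of 74 alternative values for 20 results, 30 stayed within the spread used to judge them and 44 moved further. The spread was the exact interval of a share, 1.5 times a count, or 1 SD of the 2 libraries. Reversals were not looked for. Any change of the Jaccard index or of the rank correlation counted as moved, since neither has a spread here. The share of regions found in the other list was 37.1% in replicate 1 and 28.7% in replicate 2 with 50% of both regions overlapping, 52.5% and 44.1% with 50% of the shorter, and 73.3% and 60.8% among the 50% of regions with the higher scores. That stricter list also gave a Jaccard index of 71.4%, 75 and 94 blocks, median nearest distances of 11.5 and 7.34 kb, and longest empty stretches of 2313 and 1907 kb, with fewer regions by construction. Merging regions under 1 kb apart gave a Jaccard index of 62.4% and nearest distances of 10.3 and 4.66 kb, since short gaps no longer count. Putting the left-out stretch back gave a Jaccard index of 65.1% and widest blocks of 175.7 and 172.1 kb. Joining at 50 kb gave 77 and 82 blocks, and joining at 1 kb gave 220 blocks in replicate 2. Spearman's rank correlation of the scores was 0.60 over all 158 overlapping pairs, 0.91 over the 75 pairs with 50% of both overlapping and 0.81 over the 42 pairs of 2 kb or more, and Pearson's r was 0.92. The widest block followed the joining distance, with 54.2 and 54.4 kb at 1 kb and 158.9 and 167.8 kb at 10 kb. No paired analysis was possible because ChIP and input of one number could not be compared, the inputs being without values. Without one replicate there is no overlap, and all other values are given per library. Depth was unknown, so a region missing from a list may be unenriched or under the threshold.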
